A study of Mus musculus with 15 samples.

Results

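Interferon sensing in microglia was followed through 9 genes of the receptor, STAT and IRF machinery after a dose of a TREM2-activating antibody. The genes were Ifnar1, Ifnar2, Ifngr1, Stat2, Irf9, Irf1, Irf3, Irf5 and Irf7, chosen by name from the 32372 genes of a single-cell count matrix, and all 9 were among the 14260 genes that passed a filter on low counts. One day after the dose, Irf7 rose from 4.62 ± 2.68 to 76.7 ± 8.88 CPM (SD, n = 3 mice a group), Stat2 rose 2.22-fold and Irf9 rose 1.42-fold, whereas Ifngr1 fell to 0.528 of its control level. At day 7 the only called difference from control was a higher level of Ifnar1. That call was lost when any 1 mouse of the 2 groups was left out. At days 14 and 28 none of the 9 genes was called. Calls were rare among all 14260 genes as well: 3.98%, 0.4% and 0% on days 7, 14 and 28. These low counts thus did not set the 9 genes apart.

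The cells came from the cortex and hippocampus of 15 male C57BL/6J mice aged 3.5 months. All 15 mice, controls included, carried the hTfR KI allele, in which part of the transferrin receptor is human, because the transport vehicle (ATV) in the Fc of both antibodies binds that receptor and not the mouse protein. ATV:4D9 binds mouse TREM2, a lipid receptor of microglia, and ATV:RSV served as the control. Each mouse received 10 mg/kg of either antibody once. Tissue was taken 1, 7, 14 or 28 days after ATV:4D9, but only 1 day after ATV:RSV. This gave 5 groups of 3 mice, and every batch, of which there were 3, had 1 mouse from each. All 4 comparisons with control therefore rest on the same 3 ATV:RSV mice, and at days 7, 14 and 28 the time since dosing differed as well as the antibody. The mice were perfused, and CD45-positive cells were enriched with magnetic beads before 3' droplet sequencing, which counts unique molecular identifiers (UMIs).

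Type I interferons bind a receptor built from IFNAR1 and IFNAR2, and interferon-γ binds a receptor whose ligand-binding chain is IFNGR1. The kinases JAK1, JAK2 and TYK2 on these receptors phosphorylate STAT proteins. STAT2 and IRF9 act in a complex that switches on antiviral genes through the interferon-stimulated response element, while interferon-γ acts through the gamma-activated site. IRF3 and IRF7 act upstream, where sensors of nucleic acids use them to induce interferon genes, and Irf7 is itself an interferon target. Microglia are a major target cell of interferons in the brain.

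The matrix held 102043 cells, 5667 to 7596 a mouse, with 32341960 to 70307384 UMIs a mouse. Median UMIs per cell were 8201.5 to 8995.5 in the 3 ATV:4D9 day 1 mice and 4975 to 5750 in the ATV:RSV mice. In the deposited clustering, 87.3% to 93.5% of the cells of the ATV:4D9 day 1 mice lay in cluster 2, against 1.12% to 3.23% in the other 12 mice. The share of cells with a UMI of Mki67 or Top2a, genes of dividing cells, was 19.6% to 27.4% at day 1 and at most 0.684% elsewhere. Microglial markers summed to 16228 to 21591 CPM a mouse, and the next highest list, that of astrocytes, to 124 to 251 CPM. The monocyte list stood at 16.7 ± 2.38 CPM at ATV:4D9 day 1 and 6.56 ± 3.57 CPM in ATV:RSV, and leaving out the 487 cells with at least 3 markers of another cell type changed no call among the 9 genes. The list of border-associated macrophages stood at 22.8 ± 4.49 CPM at day 1 and 16 ± 1.64 CPM in ATV:RSV, and that of neutrophils at 117 CPM in ATV:4D9 day 7 replicate 3, with 3.28 and 6.87 CPM in the other 2 mice of that group. The median share of mitochondrial UMIs in a cell was 3.96% to 4.50% at ATV:4D9 day 1, 3.11% to 3.38% in ATV:RSV and 3.13% to 4.04% in the later groups, and its part in the results was not tested. Between 5 and 27 cell barcodes were shared by any pair of libraries.

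CPM below are UMI counts-per-million of a mouse after TMM scaling, and they compare a gene between mice, not genes with each other. Differences are log2 fold changes from limma-voom over the 15 mice, and a gene was called where its p, adjusted after Benjamini and Hochberg over all 14260 genes, was under 0.05. At day 1 against ATV:RSV that rule called 69.2% of all genes, 34.7% higher and 34.6% lower, so a call alone did not set a gene apart. All 9 genes were called, 5 higher and 4 lower. The cells held more UMIs at day 1, and several of these calls depended on the scaling. Scaled by the number of cells, which compares UMIs per cell, the median gene moved by 0.32, 49.3% of genes were called higher and 13.4% lower, and the 9 genes split into 5 higher, 1 lower and 3 uncalled. Scaled by library size alone, the median gene moved by -0.29, 25.9% of genes were called higher and 48.8% lower, and the 9 genes split into 3 higher, 4 lower and 2 uncalled.

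Promoter sequences are shown for 4 of the genes because the comparisons turn on them or because they hold a short motif of the pathway. RefSeq windows on GRCm38.p6, from 250 bases before to 50 bases after a start site, were at hand for all 9 genes (11 windows). Both strands were searched for GAAANNGAA, the paired GAA repeat of the interferon-stimulated response element, and for TTCNNNGAA, the gamma-activated site, which reads the same on both strands. Of all 32851 windows of this length, 8.56% held the first and 8.30% the second. Counted by gene, 9.76% and 9.55% of 27025 genes held them. Among the 9 genes, 4 held a match: Stat2 held GAAANNGAA on the opposite strand, and Irf1, Ifnar2 and Ifnar1 held TTCNNNGAA. The shares of all genes are for each motif alone, and the share with either motif was not counted. The 250 bases before the start are given 5' to 3' on the strand of the gene, with matches in capitals. Stat2 lies at chr10:128270248-128270497 on the plus strand, Irf1 at chr11:53769764-53770013 on the plus strand, Ifnar2 at chr16:91372533-91372782 on the plus strand and Irf7 at chr7:141266425-141266674 on the minus strand.
Stat2: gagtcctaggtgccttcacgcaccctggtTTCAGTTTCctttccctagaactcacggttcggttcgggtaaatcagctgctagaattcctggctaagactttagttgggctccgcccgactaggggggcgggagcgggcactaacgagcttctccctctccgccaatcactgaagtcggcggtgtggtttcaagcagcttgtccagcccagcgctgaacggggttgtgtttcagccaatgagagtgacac
Irf1: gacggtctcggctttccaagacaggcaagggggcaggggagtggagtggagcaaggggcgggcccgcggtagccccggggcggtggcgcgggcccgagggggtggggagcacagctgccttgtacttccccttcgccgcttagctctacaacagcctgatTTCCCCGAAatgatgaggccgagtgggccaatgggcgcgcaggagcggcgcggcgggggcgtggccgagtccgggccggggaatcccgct
Ifnar2: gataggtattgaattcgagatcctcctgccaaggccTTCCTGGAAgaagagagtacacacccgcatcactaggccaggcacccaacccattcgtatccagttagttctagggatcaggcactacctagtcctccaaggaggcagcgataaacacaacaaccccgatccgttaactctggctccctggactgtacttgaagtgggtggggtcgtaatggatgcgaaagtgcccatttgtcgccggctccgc
Irf7: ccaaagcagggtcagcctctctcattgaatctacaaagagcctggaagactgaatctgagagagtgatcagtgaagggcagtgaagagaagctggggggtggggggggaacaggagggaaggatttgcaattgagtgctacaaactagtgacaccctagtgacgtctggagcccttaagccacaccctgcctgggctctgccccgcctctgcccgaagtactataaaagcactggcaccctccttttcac
The Stat2 match began 221 bases before the start, the Irf1 match 90 bases before and the Ifnar2 match 214 bases before. These distances are from the RefSeq start, and the annotated Stat2 gene begins later, at 128270559. The Irf7 window, shown because Irf7 changed most of the 9 genes, held neither string of letters. The annotated Irf7 gene reaches to 141266481, so part of the bases shown lies within it. The Ifnar1 match lies across its start, at chr16:91485210-91485218.

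Among the receptor chains, Ifngr1 fell at day 1, and with TMM scaling the 2 chains of the type I receptor moved little. On the scale of UMIs per cell, Ifnar2 rose by 0.50. Ifngr1, the ligand-binding chain for interferon-γ (mm10, chromosome 10, 19591949 to 19610229, plus strand), stood at 678, 649 and 669 CPM in the ATV:RSV mice and at 382, 356 and 316 CPM in the ATV:4D9 day 1 mice. The groups did not overlap, and every later mouse lay at or above 576 CPM. The day 1 difference was -0.92 (SE 0.0677, adjusted p = 6.05e-09), and it was called under each of the 18 alternatives run, with -0.56 on the scale of UMIs per cell. The share of cells with an Ifngr1 UMI, after each cell was thinned to 3385 UMIs, was 89.7% ± 0.66 in ATV:RSV and 64.4% ± 4.23 at ATV:4D9 day 1. Unthinned, at the median depths given above, the shares were 96.2% ± 1.08 and 88.5% ± 3.74. No cell type that should lack these 9 genes was present in number, so the share due to free RNA was not measured.

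Ifnar1, the chain that carries TYK2 (chromosome 16, 91485238 to 91507441, plus strand), was lower at day 1, a direction that turned on the scale of UMIs per cell, and higher at day 7. It stood at 51, 51.8 and 48.9 CPM in ATV:RSV, at 43.6, 46.2 and 43.1 CPM at ATV:4D9 day 1, and at 58.6, 58.3 and 58.3 CPM at day 7. The day 1 mice lay below all 3 controls and the day 7 mice above them. At day 1 the difference was -0.19 (SE 0.0531, adjusted p = 0.00476), but per cell it was 0.17 and not called, so the direction rests on the scaling. In cells thinned to equal depth the call was also lost (-0.13, adjusted p = 0.103). The day 7 difference was 0.21 (SE 0.0535, adjusted p = 0.0397). It kept its sign under all 18 alternatives but lost the call in 12 of them, among them each of the 6 that left out a mouse, where adjusted p ran from 0.079 to 0.132. At days 14 and 28 Ifnar1 lay between 48.9 and 55.7 CPM in the 6 mice and overlapped the controls.

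Ifnar2, the chain that carries JAK1 (chromosome 16, 91372783 to 91405589, plus strand), stood at 222, 230 and 255 CPM in ATV:RSV and at 257, 255 and 263 CPM at ATV:4D9 day 1. The lowest day 1 mouse lay just above the highest control. The difference was 0.14 (SE 0.0537, adjusted p = 0.0336), it was lost in 7 of 18 alternatives, and it was -0.10 and uncalled when library size alone scaled the counts. Without ATV:RSV replicate 1, without ATV:RSV replicate 2 or without ATV:4D9 day 1 replicate 3 it was also lost. On the scale of UMIs per cell the Ifnar2 difference was 0.50 and called (limma-voom, adjusted p = 3.48e-05). Mean UMIs per cell were 1.53 in ATV:RSV and 2.16 at ATV:4D9 day 1. The share of thinned cells with an Ifnar2 UMI was 56.9% ± 3.18 in ATV:RSV and 54.1% ± 1.23 at day 1, and unthinned it was 73.3% ± 3.5 and 82.3% ± 2.09. In the later groups the gene ranged from 218 to 245 CPM over 9 mice.

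**Figure D1:**
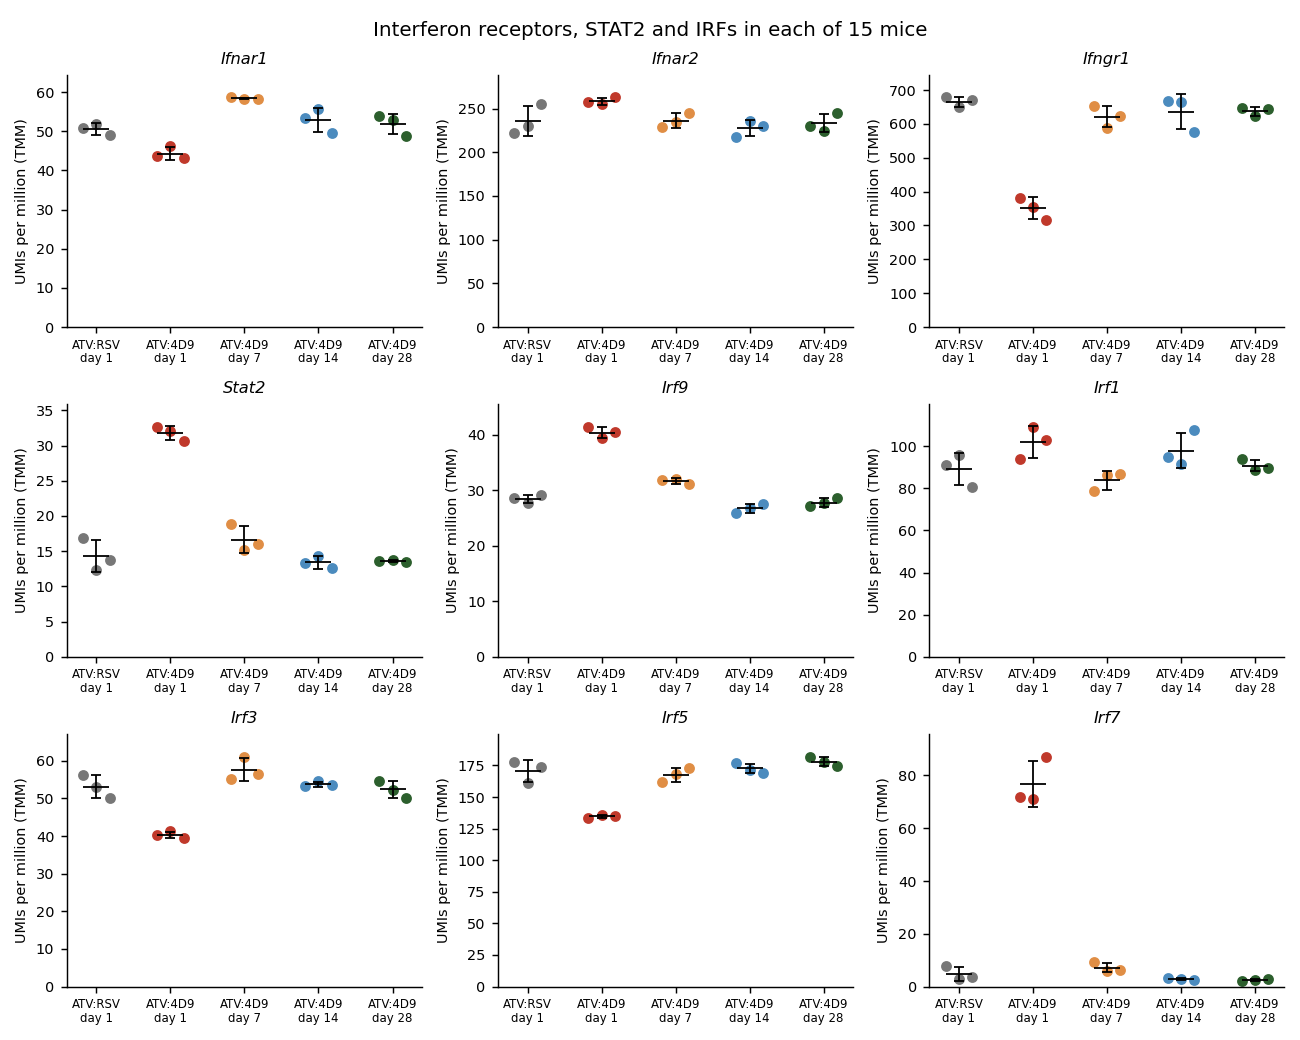
Each panel plots the CPM of 1 gene (TMM scaling, vertical axis from 0) in the 15 mice by group, 1 point a mouse, with black bars for the mean ± SD of 3 mice. Irf7, Stat2 and Irf9 stand highest and Ifngr1, Irf3 and Irf5 lowest in the ATV:4D9 day 1 mice, and the day 14 and day 28 mice sit among the ATV:RSV mice for most genes.

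STAT2 and IRF9, members of the complex that acts below the type I receptor, both had higher transcript levels at day 1. Stat2 (chromosome 10, 128270559 to 128292849, plus strand) stood at 16.9, 12.4 and 13.7 CPM in ATV:RSV and at 32.6, 32 and 30.7 CPM at ATV:4D9 day 1. The groups were far apart, and the day 7 mice, at 18.9, 15.1 and 16 CPM, overlapped the controls. The day 1 difference was 1.15 (SE 0.0903, adjusted p = 1.33e-08) and was called under all 18 alternatives. Over them the difference ran from 0.91 to 1.52, the highest per cell. At day 7 it was 0.21 (SE 0.101, adjusted p = 0.312), with a 95% interval from -0.0027 to 0.43. The share of thinned cells with a Stat2 UMI went from 4.67% ± 0.933 in ATV:RSV to 8.37% ± 0.684 at day 1 (unthinned, 8.08% ± 1.58 and 18.1% ± 1.16).

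Irf9, the DNA-binding partner of the complex (chromosome 14, 55603571 to 55610030, plus strand), stood at 28.6, 27.7 and 29.1 CPM in ATV:RSV, at 41.4, 39.4 and 40.5 CPM at ATV:4D9 day 1 and at 31.8, 32.1 and 31.1 CPM at day 7. Every day 7 mouse lay above every control and below every day 1 mouse. The day 1 difference was 0.51 (SE 0.0444, adjusted p = 5.17e-08), called under all 18 alternatives. Over them it ran from 0.27 to 0.87, the highest per cell. The day 7 difference was 0.15 (SE 0.0469, adjusted p = 0.0887), and no alternative called it. Irf9 overlaps Rnf31 on the same strand in the annotation, so reads of the 2 genes cannot be fully told apart.

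Among the IRFs, Irf7 rose at day 1 by far more than the others. Irf7, the IRF that amplifies interferon induction (chromosome 7, 141262706 to 141266481, minus strand), stood at 7.69, 2.68 and 3.51 CPM in ATV:RSV and at 72, 71.2 and 87 CPM at ATV:4D9 day 1. These values rested on 111 to 376 UMIs a control mouse and 4067 to 4585 UMIs a treated mouse. The difference was 4.15 (SE 0.233, adjusted p = 2.63e-10), and over the 18 alternatives it ran from 3.84 to 4.63 and stayed called. Within batches 1, 2 and 3 the log2 differences were 3.22, 4.71 and 4.62.

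After day 1 Irf7 approached the control range and then lay at its lower end. The day 7 mice stood at 9.28, 6.03 and 6.3 CPM, the day 14 mice at 3.07, 2.99 and 2.58 CPM, and the day 28 mice at 2.2, 2.64 and 2.77 CPM. ATV:RSV replicate 1, at 7.69 CPM, lay above 2 of the 3 day 7 mice, and the other 2 controls lay below all 3. The day 7 difference was 0.71 (SE 0.279, adjusted p = 0.203), and without ATV:RSV replicate 1 it was 1.19 and called (adjusted p = 0.00821). The day 14 and day 28 differences were -0.57 (SE 0.327) and -0.76 (SE 0.329), neither called, with unadjusted p of 0.099 and 0.0344. With that control mouse, ATV:RSV replicate 1, left out, the 2 differences shrank to -0.095 and -0.28 (unadjusted p 0.718 and 0.291).

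Few control cells held Irf7. After thinning, 1.15% ± 0.48 of ATV:RSV cells and 13.5% ± 0.84 of ATV:4D9 day 1 cells had an Irf7 UMI (unthinned, 1.94% ± 1.04 and 24.1% ± 0.867). At days 7, 14 and 28 the thinned shares were 1.78% ± 0.213, 0.896% ± 0.0495 and 0.789% ± 0.0649. In each ATV:RSV mouse the 1% of cells with most Irf7 held 60.6% to 93.7% of its Irf7 UMIs, and at day 1 that share was 19.1% to 19.6%, with up to 36 UMIs in a cell. For the other 8 genes the same share lay between 3.53% and 25.1% in all 15 mice, below Irf7 outside day 1. This share must be high wherever few cells hold the gene, as with Irf7 outside day 1. It therefore cannot show whether Irf7 was more concentrated than its low abundance alone would give.

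Irf1, an IRF induced through the gamma-activated site (chromosome 11, 53770014 to 53778374, plus strand), stood at 91.2, 95.8 and 80.6 CPM in ATV:RSV and at 94.1, 109 and 103 CPM at ATV:4D9 day 1. The groups overlapped. The difference was 0.20 (SE 0.0745, adjusted p = 0.0292), it was lost in 5 of 18 alternatives and it was -0.046 and uncalled when library size alone scaled the counts. Leaving out ATV:RSV replicate 3, ATV:4D9 day 1 replicate 2 or ATV:4D9 day 1 replicate 3 ended the call. Per cell the difference was 0.56 and called. Irf1 overlaps Gm17334 on the opposite strand, as Irf3 does Bcl2l12, Irf5 Tnpo3 and Irf7 Phrf1, and Ifnar2 overlaps Gm21970 on its own strand.

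Irf3, a constitutive factor activated by nucleic acid sensors (chromosome 7, 44997648 to 45002848, plus strand), stood at 56.2, 53.1 and 50.1 CPM in ATV:RSV and at 40.3, 41.2 and 39.6 CPM at ATV:4D9 day 1. The day 1 mice lay below all controls, with a difference of -0.40 (SE 0.0531, adjusted p = 6.36e-06). Per cell, Irf3 was 0.347 ± 0.0392 UMIs in ATV:RSV and 0.338 ± 0.0266 UMIs at day 1, a difference of -0.034 that was not called.

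Irf5, which acts downstream of Toll-like receptors (chromosome 6, 29526625 to 29541871, plus strand), stood at 178, 161 and 174 CPM in ATV:RSV and at 133, 136 and 135 CPM at ATV:4D9 day 1. Again the groups did not overlap, and the difference was -0.34 (SE 0.0443, adjusted p = 4.36e-06). On the scale of UMIs per cell it was 0.019 and uncalled, with 1.11 ± 0.128 UMIs in ATV:RSV and 1.13 ± 0.0697 UMIs at day 1. For Irf3 and Irf5 the lower level thus held as a share of the UMIs of a cell and was not seen in the UMIs per cell.

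**Figure D2:**
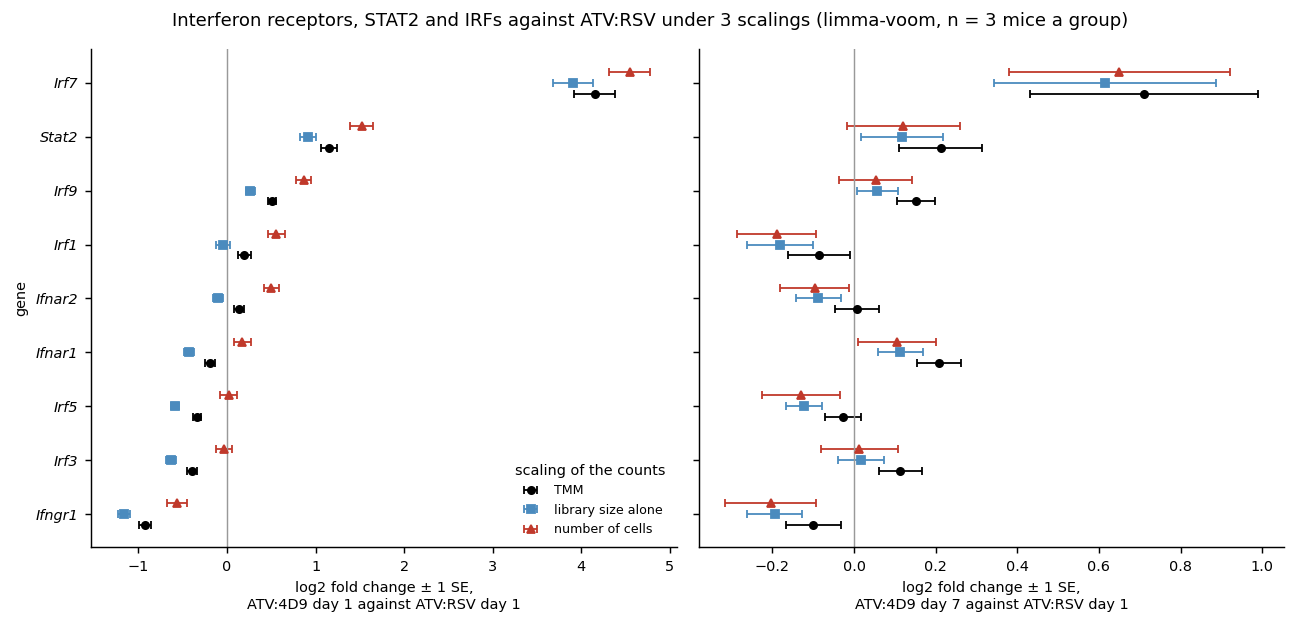
Log2 fold changes of the 9 genes against ATV:RSV (horizontal axis, points with ± 1 SE) are plotted for day 1 on the left and day 7 on the right, with the counts scaled by TMM (black circles), by library size alone (blue squares) or by the number of cells (red triangles). At day 1 Irf7, Stat2 and Irf9 lie above 0 and Ifngr1 below 0 under all 3 scalings, while Irf1, Ifnar2, Ifnar1 and Irf5 change sign with the scaling. The 2 panels have different horizontal ranges.

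The change between days 1 and 7 of ATV:4D9 was tested directly. All 9 genes were called, 4 higher and 5 lower at day 7, where the same rule called 66.9% of all genes, 33% higher and 33.9% lower. That split rested on the scaling: by the number of cells 1274 genes were called higher and 7741 lower (1 and 5 of the 9 genes), and by library size alone 5908 and 3971 (4 and 3 of the 9). Irf7 fell by 3.44 on the log2 scale (SE 0.203, adjusted p = 5.55e-10), Stat2 fell by 0.94 and Irf9 fell by 0.35. Ifngr1 rose by 0.83 (SE 0.0679, adjusted p = 2.66e-08) and Irf3 by 0.51. Ifnar1 rose by 0.40 and Irf5 by 0.32. On the scale of UMIs per cell Irf3 (0.047), Ifnar1 (-0.064) and Irf5 (-0.15) were not called, the last 2 with the sign turned. Irf1 fell by 0.28, and the call was lost with library size alone (-0.14) and in thinned cells (-0.13). For Ifnar2 the change was -0.13 (adjusted p = 0.0448), lost in 9 of 18 alternatives, and 0.017 with library size alone. Leaving out any 1 mouse of either group but ATV:4D9 day 7 replicate 3 ended that call. On the scale of UMIs per cell the change was -0.59 for Ifnar2 and -0.75 for Irf1. Both were called there (limma-voom, adjusted p = 3.84e-06 and 1.07e-06).

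Against ATV:RSV the rule called 3.98% of all genes at day 7, 0.4% at day 14 and 0% at day 28. Of the 9 genes, 1 was called at day 7 and 0 at days 14 and 28, and edgeR and DESeq2 gave the same counts of members. Over all genes 770 at day 14 and 571 at day 28 had an unadjusted p under 0.05, and at day 28 edgeR called 0 and DESeq2 14. The counts over all genes moved with single mice: the 568 of day 7 went to 331 without ATV:RSV replicate 2 and to 334 without ATV:4D9 day 7 replicate 3, and the 57 of day 14 went to 16 without ATV:RSV replicate 3, to 30 without ATV:4D9 day 14 replicate 2 and to 0 without ATV:4D9 day 14 replicate 1. Scaled by library size alone, day 7 had 317 genes higher and 882 lower, where TMM gave 426 and 142, and scaled by the number of cells it had 159 and 149. At an unadjusted p under 0.05, limma-voom had 0 of the 9 genes at day 14 and 1, Irf7, at day 28. At day 7 it had Ifnar1 (0.00141), Irf9 (0.00527), Irf7 (0.0225) and Irf3 (0.0499), beside 2336 of all 14260 genes. From day 7 to day 14 only Irf9 was called (-0.24, SE 0.0472, adjusted p = 0.0205), where 0.912% of all genes were (130, and 31 to 81 with a mouse left out). That call was lost in 9 of 18 alternatives, among them each of the 6 that left out a mouse (adjusted p 0.0532 to 0.123). Irf7 differed by -1.28 (SE 0.307, adjusted p = 0.0721), and it was called with the batch as a replicate block (adjusted p = 0.0346), by edgeR (0.0445) and by DESeq2 (0.01). At day 28 the 95% interval of the difference was -0.21 to 0.08 for Ifngr1, -0.29 to 0.14 for Stat2 and -1.46 to -0.06 for Irf7, the last resting on ATV:RSV replicate 1.

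The 3 deposited clusters were made from the same cells and genes, so their values are given without a test. Levels here are CPM within the cells of a mouse in a cluster, with no TMM scaling. Outside day 1, cluster 2 held only 74 to 245 cells a mouse, yet its Irf7 level was the highest of the 3 clusters in all 15 mice. In ATV:RSV the 3 mice had 135, 65.8 and 55.1 in cluster 2, 4.64, 1.79 and 2.93 in cluster 0, and 1.89, 1.54 and 1.75 in cluster 1. The control mouse with the highest Irf7 level was thus also the highest in cluster 2. At ATV:4D9 day 1 cluster 2 held 69.5, 67.3 and 78.3, within the range of the controls, and it held 99.4% to 99.5% of all Irf7 UMIs of those mice. Cluster 0 at day 1, with 211 to 383 cells a mouse, had 8.11, 9.76 and 18.1, above the controls in all 3 mice. These cluster 0 values rest on the few Irf7 UMIs left outside cluster 2.

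The Stat2 level was also highest in cluster 2 in all 15 mice, with 54.3 ± 24.9 in ATV:RSV and 29 ± 1.57 at ATV:4D9 day 1, against 14 ± 1.24 and 15.2 ± 3.72 in cluster 0. Within cluster 2 the day 1 mice, at 27.2 to 30.3, lay below all 3 controls, at 33.6 to 81.9. In cluster 1, of 180 to 555 cells a mouse at day 1, Stat2 was 14.2 ± 2.25 in ATV:RSV and 23.6 ± 1.78 at day 1. Ifngr1 was lowest in cluster 2 in all 15 mice, and without TMM scaling it was lower at day 1 than in ATV:RSV within each cluster. The levels were 301 ± 28.5 against 459 ± 37.6 in cluster 2 and 513 ± 16 against 644 ± 4.86 in cluster 0. In cluster 1 they were 701 ± 37.7 against 859 ± 25.3. Over all cells, scaling by library size alone moved the median gene by -0.29 on the log2 scale at day 1. That shift was not measured within a cluster, so how far Ifngr1 moved beyond it there was not tested. Irf1 differed between the clusters themselves, with 118 ± 6.7 in cluster 0 and 37.5 ± 3.42 in cluster 1 of ATV:RSV and the same order in all 15 mice.

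**Figure D3:**
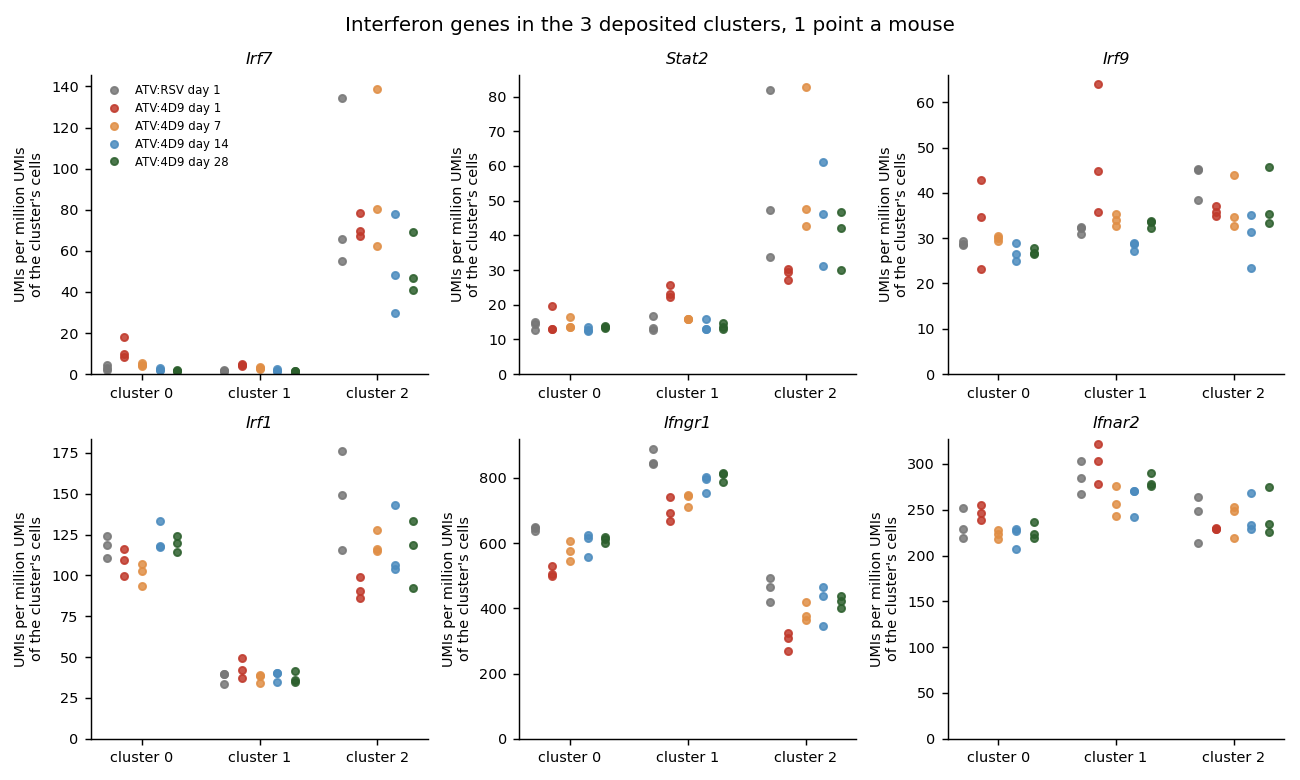
CPM within the cells of a mouse in each deposited cluster (vertical axis, from 0) is plotted for 6 of the genes, 1 point a mouse, with colours for the 5 groups. The Irf7 level is highest in cluster 2 and the Irf1 level lowest in cluster 1 in all 15 mice, and Ifngr1 at ATV:4D9 day 1 lies below the ATV:RSV points in each cluster. These levels have no TMM scaling.

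The other genes were compared between cells with and without an Irf7 UMI, after thinning, as a description. There were 208 cells with and 17509 without in ATV:RSV, 2612 with and 16870 without at ATV:4D9 day 1, and 156 to 297 with in each later group. Stat2 was found in 20.8% ± 4.06 of Irf7-positive and 4.47% ± 0.812 of Irf7-negative ATV:RSV cells, and in 20.6% ± 1.41 and 6.47% ± 0.728 at day 1. Stat2, Irf9 and Irf1 were more frequent in the Irf7-positive cells in all 15 mice. For Irf9 the contrast was 19.3% ± 3.72 against 9.34% ± 0.322 in ATV:RSV and 13.6% ± 0.618 against 11.4% ± 0.739 at day 1. Ifngr1 was less frequent in the Irf7-positive cells of all 3 day 1 mice, at 49.9% ± 5.44 against 66.7% ± 3.9, and of all 3 ATV:RSV mice, at 81.6% ± 5.93 against 89.8% ± 0.647. At day 1 Ifnar2 (48.8% ± 1.62 against 54.9% ± 1.15) and Irf3 were also less frequent there in all 3 mice. Irf5 was more frequent in the Irf7-positive cells of all 3 ATV:RSV mice, at 53.5% ± 0.625 against 44.5% ± 1.47, and at day 1 the shares were 32.5% ± 0.392 and 33.6% ± 0.563. Among cells of the day 1 mice with a UMI of Mki67 or Top2a, 10.3% ± 0.294 had an Irf7 UMI, against 14.5% ± 1.17 of the other cells, and leaving those cells out changed no call of day 1.

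**Figure D4:**
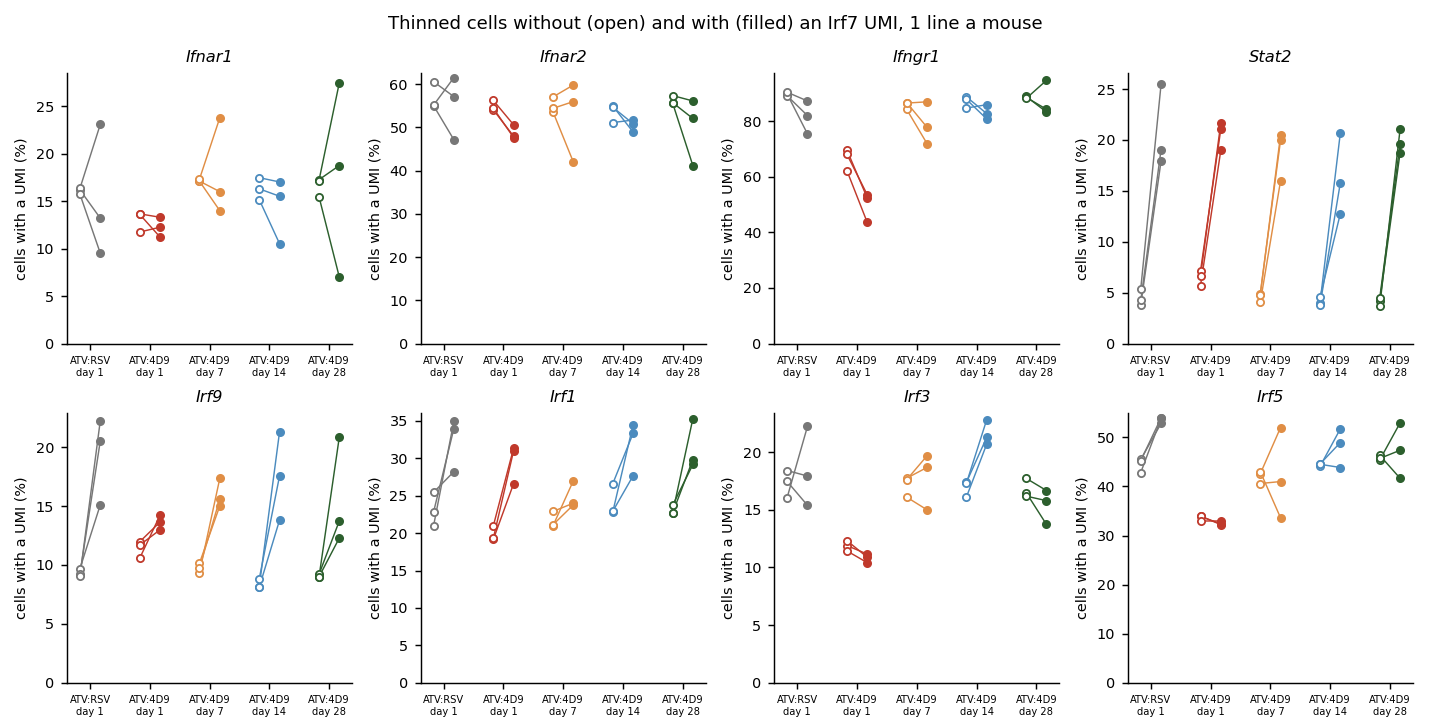
For the 8 other genes, the percent of thinned cells with a UMI (vertical axis, from 0) is plotted for cells without an Irf7 UMI (open circles) and with an Irf7 UMI (filled circles), joined by 1 line a mouse, in the 5 groups. The lines for Stat2, Irf9 and Irf1 rise in all 15 mice, and those for Ifngr1 fall in the 3 ATV:RSV and the 3 ATV:4D9 day 1 mice.

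The rest of the pathway was read from lists by role that hold none of the 9 genes. Of 21 interferon genes listed, only Ifnb1, the gene of interferon-β, passed the filter, and the other 20 had at most 43 UMIs each over all 15 mice. Ifnb1 had 17, 1 and 1 UMIs in the ATV:RSV mice and 290, 343 and 453 UMIs at ATV:4D9 day 1 (adjusted p = 0.000533), in 72, 113 and 101 cells. Within each day 1 mouse, 10 cells held 46.6% to 61.7% of them. At day 7 there were 42, 71 and 6 UMIs in 7, 12 and 4 cells, and the difference from ATV:RSV was not called (adjusted p = 0.348).

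Of 6 further receptor and kinase genes tested, 1 rose and 4 fell at day 1, with a median of -0.18, beside -0.05 for all genes. Of all genes 34.7% were called higher and 34.6% lower. Jak3, a kinase of cytokine receptors, rose by 0.61, and Jak1 fell by 0.42, Il10rb by 0.41, Tyk2 by 0.18 and Jak2 by 0.17, the last 2 with calls lost in 11 of 18 alternatives. Per cell, Jak2 and Tyk2 were 0.19 and 0.17, Il10rb was -0.045 and Jak1 -0.06, and none of these 4 was called. Ifngr2, the second chain of the interferon-γ receptor, differed by -0.02 (adjusted p = 0.637) and by 0.34, called, per cell.

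A list of 11 genes held 8 other STATs and IRFs and 3 genes of the IRF2-binding protein family, Irf2bp1, Irf2bp2 and Irf2bpl, which are not IRFs. Of the 11, 1 rose and 10 fell at day 1, with a median of -0.56, where 34.7% of all genes were called higher and 34.6% lower. On the scale of UMIs per cell, where the median gene moved by 0.32, the split of the list was not counted. Stat4, which rose, stood at only 0.0618 CPM in ATV:RSV and 0.219 CPM at day 1, and its call was lost in 4 of 18 alternatives. Irf4 fell by 1.74, Stat5b by 0.92, Irf2bpl by 0.88 and Irf2, a repressor of interferon targets, by 0.56. Irf8, a lineage factor of microglia, fell by 0.13 (adjusted p = 0.0251), a call lost in 9 of 18 alternatives and turned to 0.23, called, per cell. Stat3 fell by 0.34 and was 0.020 and uncalled per cell. All 20 listed targets of type I interferons rose, with a median of 4.06. Rsad2 and Oasl1 rose most, by 5.37 each, followed by Oas3 at 4.77, and Mx2, Xaf1 and Bst2 rose least, by 1.41, 2.06 and 2.79. Of 15 targets of interferon-γ and IRF1, 14 rose, led by Cxcl10 (5.78), Iigp1 (4.50) and Nlrc5 (3.01), with a median of 1.38. Psmb9 (0.52) and Gbp3 (0.40) rose less, and Irgm2 fell by 0.30, with 0.06 and no call per cell. Ifng, the gene of interferon-γ, had 2 UMIs over all mice and 0 at ATV:4D9 day 1. Which interferon these targets followed was not tested.

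Upstream of the IRFs, 8 of 22 sensors and adaptors rose and 8 fell, shares near those of all genes (34.7% higher and 34.6% lower). Zbp1 (4.89), Ikbke (2.98), a kinase that phosphorylates IRF3 and IRF7, and Dhx58 (1.90) rose most. Tlr9 (-0.73), Irak4 (-0.49) and Tlr7 (-0.42) fell most. Of 13 brakes on the pathway, 6 rose, led by Usp18 (4.17), Socs2 (1.69) and Ptpn6 (0.45), and 4 fell, among them Pias1 (-0.58), Pias3 (-0.58) and Pias4 (-0.28), the last 0.085 on the scale of UMIs per cell. USP18 binds IFNAR2 and damps its signal.

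**Figure D5:**
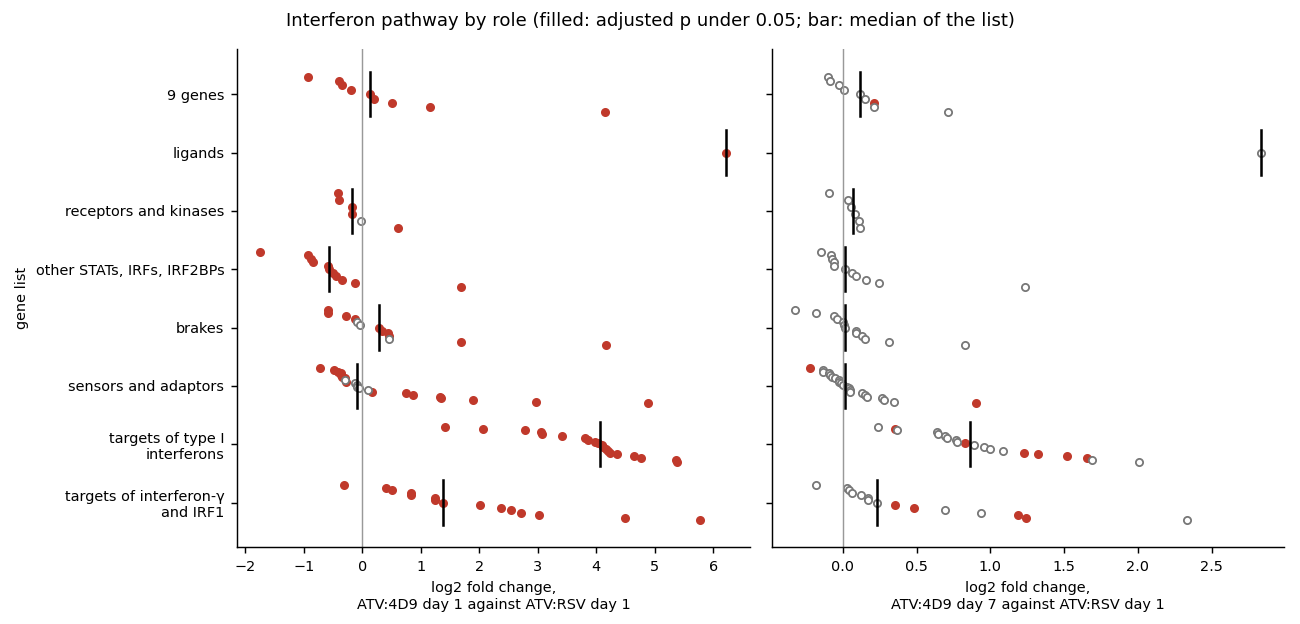
Each point is the log2 fold change of 1 gene against ATV:RSV (horizontal axis) at day 1 on the left and day 7 on the right, in rows for the 9 genes and for lists of the pathway by role, with filled points called at an adjusted p under 0.05, open points not called and black bars for the median of a row. At day 1 all 20 targets of type I interferons lie above 0 with a median of 4.06, and at day 7 their median is 0.86 with 6 called. The horizontal ranges of the 2 panels differ.

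At day 7 the called differences from ATV:RSV lay mostly among the targets. Of the targets of type I interferons 6 of 20 rose, Ifi27l2a (1.66), Ifitm3 (1.52), Oasl2 (1.32), Oas1a (1.23), Mx1 (0.83) and Bst2 (0.35). Of the targets of interferon-γ and IRF1 4 of 15 rose, Cxcl10 (1.24), Nlrc5 (1.19), Cd274 (0.48) and Tap1 (0.35). Among the sensors Zbp1 rose by 0.90, while Tlr7 fell by 0.22. Of these calls Cd274 was lost in 13 of 18 alternatives, Mx1 in 9, Tlr7 in 8 and Zbp1 in 6. No brake, none of the 6 further receptors and kinases and none of the 11 genes listed with the other STATs and IRFs was called. Lists this short cannot be told apart from the 3.98% of all genes. At days 14 and 28, where 0.4% and 0% of all genes were called, no gene of any list was called. From day 7 to day 14, where 0.912% of all genes were called, 9 of the 20 targets of type I interferons fell. Among them were Ifi27l2a (-1.89), Ifitm3 (-1.77), Oasl2 (-1.64), Bst2 (-0.39), Xaf1 (-0.48) and Mx1 (-1.02). Zbp1 (-1.46) and Cxcl10 (-1.03) fell as well.

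Between days 1 and 7 of ATV:4D9 all 20 targets of type I interferons fell, with a median of -2.96, most for Oasl1 (-4.48), Rsad2 (-4.29) and Isg15 (-3.67) and least for Mx2 (-1.17), Ifi27l2a (-1.39) and Xaf1 (-1.70). Of the 15 targets of interferon-γ and IRF1 13 fell, from Cxcl10 (-4.54), Iigp1 (-3.56) and Gbp2 (-2.15) to Psmb8 (-0.66), Psmb9 (-0.40) and Gbp3 (-0.34). Ifnb1 fell as well (adjusted p = 0.000398). Of the 11 genes listed with the other STATs and IRFs 10 rose, led by Irf4 (1.99) and the IRF2-binding protein genes Irf2bpl (0.82) and Irf2bp2 (0.78), and least for Stat3 (0.43), Irf2bp1 (0.42) and Irf8 (0.29), whose sign turned for all 3 on the scale of UMIs per cell. Of the receptors and kinases Jak3 fell (-0.53) and 5 rose, Il10rb (0.46), Jak1 (0.33), Tyk2 (0.30), Jak2 (0.21) and Ifngr2 (0.13), but on the scale of UMIs per cell the sign turned for all 5 of them. Of the sensors and adaptors 9 rose, led by Tlr9 (0.86), Slc15a4 (0.52) and Irak4 (0.49), and 8 fell, led by Zbp1 (-3.99), Ikbke (-3.11) and Dhx58 (-1.55), of 22 genes, shares near those of all genes (33% higher and 33.9% lower). Of the brakes Usp18 (-3.35), Socs2 (-1.38), Ptpn11 (-0.44) and 3 more fell, and Pias1 (0.67), Pias3 (0.54) and Pias4 (0.41) rose, the last with the sign turned per cell.

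Over the 12 mice outside ATV:4D9 day 1, the genes most like each of the 9 were sought among 7516 others by the Pearson correlation of log2 CPM, as a description. The day 1 mice stood apart, so no value over all 15 mice is given. Irf7 was most like Isg15 (r = 0.977, Spearman's rho = 0.867) and Slfn5 (r = 0.976). Without the 2 mice farthest from its median those 2 values were 0.960 and 0.973, but the same check lowered r to 0.734 for Irf3 with Paf1 and to 0.761 for Irf1 with Ptpn2. Stat2 was most like Ifit3 (r = 0.947) and Usp18 (r = 0.941), and Irf7 came at rank 5 (r = 0.923). Irf9 was most like Ccl12 (r = 0.932) and Cst7 (r = 0.920). For Irf1, Irf3, Irf5 and the 3 receptor chains the highest r was 0.881 to 0.936. Among the leading genes were Ptpn2 and Snapc1 for Irf1, Paf1 and Nfkb2 for Irf3, Cdkal1 and Rnf44 for Irf5, Pnpla7 and Usp35 for Ifnar1, Plin3 for Ifnar2, and Timm50 and Pde2a for Ifngr1. Irf1 ran against Irf7 over these mice (r = -0.594). Of their groups, day 7 had the highest mean Irf7 (7.21 CPM) and the lowest mean Irf1 (83.9 CPM). Correlations over these mice mix differences between groups with those between mice of a group. The 12 mice share 3 batches and 1 set of controls, and each of the 9 genes was searched against all 7516 others.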

How the data were processed

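Single-cell RNA was measured in 15 mice. The authors deposited UMI counts per gene and cell, already filtered, with each cell's mouse, cluster, count totals and mitochondrial percent. Cell Ranger 4.0.0 and mm10 are named in the submitters' processing notes, while the paper gives a later Cell Ranger version. Deposited cells were used as given, with no doublet caller run here, and doublet handling is otherwise not given in the sources used here.

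Counts were summed per mouse. In R 4.3.3, limma-voom from limma 3.58.1 was run with TMM factors from edgeR 4.0.16 on genes that passed filterByExpr (minimum count 10, minimum total 15), in a fit of 5 group means over 15 mice, with Benjamini-Hochberg adjustment over all genes. The p-values cover the spread between mice. Depth was 32341960 to 70307384 UMIs a mouse. Shares of cells used cells thinned to 3385 UMIs, which left out 10204 cells. The alternatives were edgeR's quasi-likelihood test, DESeq2 1.42.0, 3 other scalings, no filter, a replicate block, only the compared groups, thinned cells, 3 sets of cells left out, and each mouse left out. Each batch holds all 5 groups per the labels, so batch pairs the mice, and deviations from the group means correlated by 0.0539 on average within a batch (30 pairs) and -0.0267 between batches (60 pairs). All pairs of libraries within a group differed by more than sampling noise (chi-square per degree of freedom 9.90 to 26.7).

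The 9 genes, the lists and the tests were chosen with earlier results of these data known. All 9 genes are named. Of each pathway list, the called genes with the 3 highest and 3 lowest log2 fold changes are named, with Jak1, Jak2, Tyk2, Ifngr2, Irf2 and Irf8 at day 1, and for each of the 9 genes the 2 most like it over 12 mice, except 2 genes not reported here. Promoters are from RefSeq (GRCm38.p6). The fit was tested on simulated data in which few genes changed, as many up as down. That check does not cover the scaling at day 1, where most genes were called.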

Additional observations from a re-analysis of the deposited data

Results flagged for a closer look

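With TMM scaling, the difference between times of ATV:4D9 was called for all 9 genes, by a test of the difference between day 7 and day 1 itself (limma-voom, adjusted p under 0.05 over all genes). On the log2 scale, day 7 minus day 1 was -3.44 for Irf7, -0.94 for Stat2, -0.35 for Irf9, -0.28 for Irf1, -0.13 for Ifnar2, 0.32 for Irf5, 0.40 for Ifnar1, 0.51 for Irf3 and 0.83 for Ifngr1. In that comparison 66.9% of all genes were called. Scaled by the number of cells 6 of the 9 genes were called, without Irf3 (0.047), Ifnar1 (-0.064) and Irf5 (-0.15), beside 9015 of all 14260 genes. The calls of Ifnar2 and Irf1 were lost in 9 and 2 of 18 alternatives. Between days 7 and 14 the difference was called for Irf9 alone among the 9 genes, at -0.24, and for 0.912% of all genes. The Irf9 call was lost in 9 of 18 alternatives, among them each of the 6 that left out a mouse, and Irf7 was called in 5 of 18.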

How the results depend on the processing

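Irf7, Stat2, Irf9 and Ifngr1 kept their direction and call at day 1 against ATV:RSV and at day 7 against day 1 under all 18 alternatives of each comparison. With library size alone, Irf1 and Ifnar2 turned at day 1 (-0.046 and -0.10), as did Ifnar2 at day 7 against day 1 (0.017). Scaled by the number of cells, the day 1 differences turned for Irf5 (0.019), Ifnar1 (0.17), Tyk2 (0.17), Jak2 (0.19), Irf8 (0.23), Pias4 (0.085), Irgm2 (0.060), Stat3 (0.020) and Ifngr2 (0.34). With the same scaling, day 7 against day 1 turned for Irf5 (-0.15), Ifnar1 (-0.064), Tyk2 (-0.16), Jak1 (-0.14), Il10rb (-0.00595), Ifngr2 (-0.33), Jak2 (-0.26), Irf8 (-0.18), Irf2bp1 (-0.036), Stat3 (-0.033) and Pias4 (-0.051). The cells of the day 1 mice held more UMIs, so these scalings differ by construction.

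Of the 9 genes, the number called at day 7 against ATV:RSV went from 1 to 0 with library size alone, scaling by the number of cells, no filter, no cells with Mki67 or Top2a UMIs, thinned cells or only the 2 groups, and was 0 to 1 with a mouse left out. At day 14 against day 7 it went from 1 to 2 with edgeR, DESeq2, thinned cells or the replicate block, and to 0 with library size alone or scaling by the number of cells, and was 0 to 0 with a mouse left out. It was 6 to 9 for day 1 against ATV:RSV and for day 7 against day 1. With TMM scaling those 2 comparisons called 69.2% and 66.9% of all genes. The alternatives other than leaving out a mouse called 8515 to 10649 and 8165 to 9943 genes. The replicate block changed no other call among the 9 genes. Over all genes it moved the count from 568 to 1014 at day 7 against ATV:RSV, from 57 to 122 at day 14 and from 0 to 2 at day 28, where DESeq2 called 14 and edgeR 0. The 568 went to 871 with DESeq2, 1199 with library size alone and 308 scaled by the number of cells, and the 57 to 132, 19 and 0 with the same 3 settings, to 31 in thinned cells and to 0 with only the 2 groups. The causes were not tested.

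With 3 mice a group, small differences at days 7 to 28 are bounded only by their intervals. Irf7 and Ifnb1 rest on few cells outside day 1. ATV:RSV was sampled at day 1 alone, so time and antibody cannot be told apart later.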
